A study of Mus musculus with 12 samples.

Results

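The genes described here are 8 transcripts used as markers of alternatively activated macrophages, *Retnla*, *Chil3*, *Mrc1*, *Clec10a*, *Mgl2*, *Ch25h*, *Tgm2* and *Flt1*. They were found by the accession that the array design gives for each probe, which led to 12 probes for the 8 genes of 32301 genes or transcripts on the array. The RNA came from bone marrow-derived macrophages (BMDMs) of 8-week-old wild-type mice (WT) and *Keap1* flox/flox::LysM-Cre mice (KpCKO) on a C57BL/6 background, grown for 7 days with 20 ng per ml M-CSF, the growth factor that turns marrow progenitors into macrophages. For 6 h before harvest the cells of each genotype received nothing (Con), LPS at 5 ng per ml together with IFNγ at 10 ng per ml (M1), or IL-4 at 10 ng per ml (M2), after M-CSF had been withdrawn. There were 2 cultures, the first from male and the second from female mice, each with 1 WT and 1 KpCKO mouse that gave the cells for every treatment, which made 6 groups of 2 arrays. LysM-Cre deletes the floxed *Keap1* in myeloid cells only, and sex and culture cannot be told apart. The limma p-values below rest on the spread between the 2 arrays of a group, pooled over the 6 groups. A shift shared by the arrays of a culture was taken out first. In the main fit the arrays of a mouse counted as independent, so the spread between the 2 mice of a genotype is not fully measured.

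IL-4 and its relative IL-13 act on macrophages through a receptor that activates the transcription factor STAT6, and cells treated in this way take on a pattern called alternative or M2 activation. In the mouse this state is recognised by secreted proteins such as the resistin-like molecule encoded by *Retnla* and the chitinase-like protein Ym1 encoded by *Chil3*, and by surface lectins such as the mannose receptor encoded by *Mrc1*. LPS with IFNγ drives the opposed, classical or M1 pattern, in which NF-κB takes part. Keap1 is the adaptor that sends the transcription factor Nrf2 to degradation, and its loss leaves Nrf2 active without an inducer.

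Levels are log2 signals of the background-subtracted intensity relative to the 75th percentile of the array, so that 0 marks a probe brighter than 75 percent of the others. The 75th percentile ranged from 548 to 1166 intensity units over the 12 arrays, and 59.3% to 71.4% of the probes were well above background. No spot was saturated. The 4 arrays of a treatment shared a slide, and the M2 slide was scanned on another day than the Con and M1 slides, so a treatment cannot be told apart from its slide, whereas WT and KpCKO were compared within slides. *Keap1* was lower and the Nrf2 target *Nqo1* higher in KpCKO than in WT in all 6 pairs of arrays, and *Nos2*, the M1 marker, was well above background on the 4 M1 arrays only. All 7 macrophage markers found on the array (*Adgre1*, *Csf1r*, *Itgam*, *Fcgr1*, *Mertk*, *Cd14* and *Lyz2*) were well above background on the 12 arrays. Of the endothelial markers *Tek* and *Tie1* were not well above background on any array, and *Kdr* and *Cdh5* were on all 12. Of the neutrophil markers 5 of 7 were on all 12 arrays, *Ngp* on 11 and *Elane* on none. The eosinophil markers *Prg2* and *Ccr3* were on all 12 and *Epx* on none, of the mast cell and basophil markers *Fcer1a* was on 12, *Mcpt8* on 11, *Cpa3* on 6 and *Ms4a2* on none, and the 4 stromal markers were on all 12.

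The sequence before the start site is shown for *Retnla*, in which a STAT6-type palindrome was found, and for *Ch25h*, which responded most to LPS and IFNγ and had none. RefSeq gives a promoter window for 6 of the 8 genes on GRCm38.p6, not for *Clec10a* and *Tgm2*. The 250 bases before each start are printed 5′ to 3′ on the strand of the gene, from chr16:48842359-48842608 on the plus strand for *Retnla* and chr19:34475149-34475398 on the minus strand for *Ch25h*. Capitals mark the palindrome TTCNNNNGAA, the spacing known for STAT6, and the NF-κB-type sequence GGGANNNNCC, each searched on both strands.
Retnla: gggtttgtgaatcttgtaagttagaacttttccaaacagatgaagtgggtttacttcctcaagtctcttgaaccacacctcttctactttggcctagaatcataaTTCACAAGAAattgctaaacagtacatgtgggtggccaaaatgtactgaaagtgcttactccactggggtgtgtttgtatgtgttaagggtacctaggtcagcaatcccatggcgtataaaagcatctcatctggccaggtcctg
Ch25h: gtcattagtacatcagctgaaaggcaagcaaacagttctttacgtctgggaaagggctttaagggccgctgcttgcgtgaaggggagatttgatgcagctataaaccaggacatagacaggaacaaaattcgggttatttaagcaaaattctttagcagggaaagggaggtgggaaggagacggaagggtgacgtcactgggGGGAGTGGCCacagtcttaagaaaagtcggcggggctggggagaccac
The palindrome was found 145 bases before the start of *Retnla* and in no other of the 6 windows of 300 bases, which reach 50 bases past the start. It occurred in 6.95% of 32851 RefSeq windows of that length. The NF-κB-type sequence was in 5 of the 6 windows, all but *Retnla*, and in 20.7% of all windows. TATAAA was in 4 of the 6 windows and in 13.6% of all, 30 bases before the start in *Retnla* and 31 bases in *Flt1*. The antioxidant response element, which Nrf2 binds, was searched as TGACNNNGC and TGAGNNNGC and was in none of the 6 windows, against 12.4% and 17.6% of all windows. No match overlapped a match of another motif in the 6 windows. These are matches of letters, and binding was not measured here.

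After IL-4, 7 of the 8 genes were higher in WT by limma's test with a Benjamini-Hochberg adjusted p under 0.05 over all genes, and 6 of 8 in KpCKO, and none was lower in either genotype. Of all genes tested 8.62% were higher and 8.2% lower in WT, and 5.68% and 4.54% in KpCKO. *Retnla* passed the filter on dim signals through its M2 arrays alone, so that it had to differ, and the other 7 genes were well above background on every array. On the log2 scale the 8 genes had a median difference of 4.16 in WT, against −0.0087 for all genes, and 3.95 in KpCKO, against 0.0082. LPS with IFNγ raised 2 of the 8 genes in WT and 2 in KpCKO, *Ch25h* and *Tgm2* in both, and lowered none. That was a treatment after which 34.5% of all genes were higher and 28.7% lower in WT, and 24.8% and 25.4% in KpCKO. The median of the 8 genes was 0.23 in WT, against 0.13 for all genes. Both responses were measured against the same Con arrays. With only the KpCKO Con and M2 arrays in the fit, the 6 IL-4 calls in KpCKO were lost (limma adjusted p from 0.058 to 0.077), whereas the WT calls and those of LPS with IFNγ held in such a fit. The methods' t-test is the unpaired test that the study names for its macrophage data unless stated otherwise. With Benjamini-Hochberg adjustment it called none of the 8 genes after IL-4 in either genotype, after LPS with IFNγ in KpCKO or between the genotypes. The ranges of adjusted p given below are over the limma alternatives and leave it out. For its array genes the study used another rule, a change of more than 2-fold in both cultures. By that rule all of the 8 genes but *Tgm2* were higher after IL-4 in WT. Set directly against M1 in WT, M2 was higher for 6 of the 8 genes and lower for *Ch25h* and *Tgm2*, where 29.3% of all genes were higher and 33.7% lower.

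**Figure D1:**
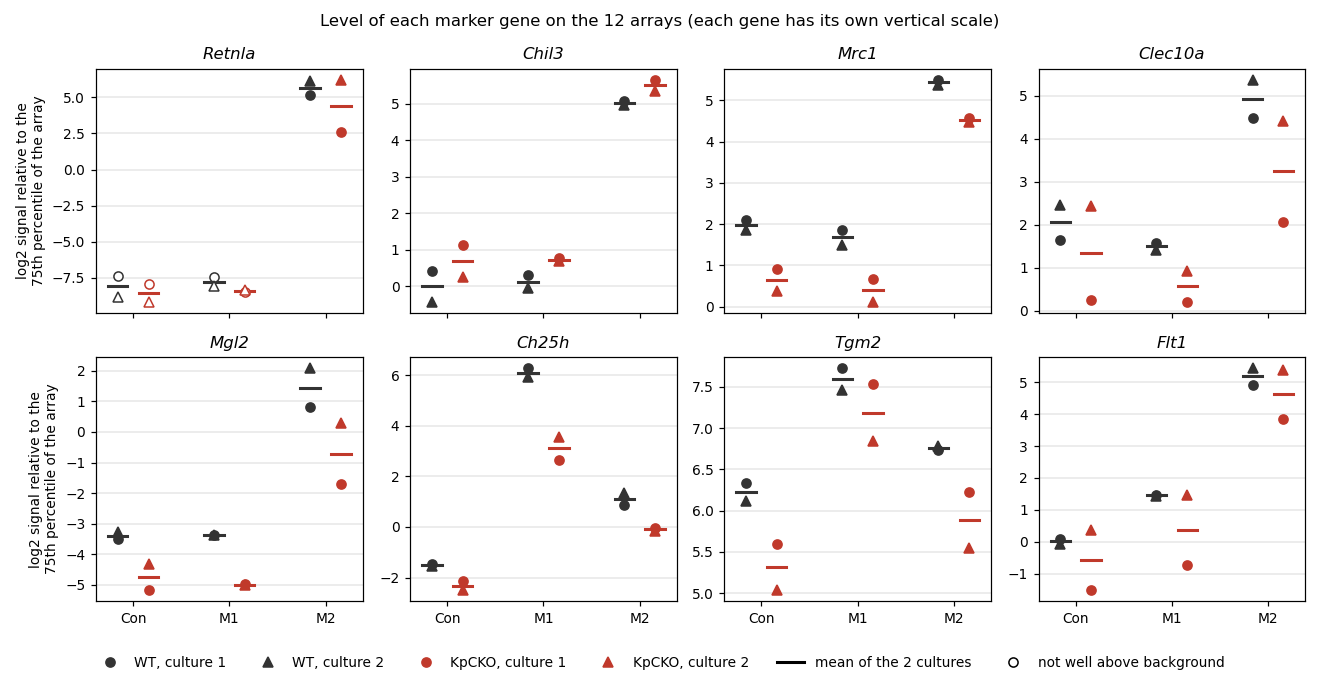
Log2 signal relative to the 75th percentile of the array (vertical axis) of the probe that stands for each of the 8 genes, in Con, M1 and M2 (horizontal axis), with WT in black, KpCKO in red, circles for culture 1, triangles for culture 2, lines for the mean of 2 cultures and open symbols for signals not well above background. *Retnla* is above background in M2 only, *Ch25h* and *Tgm2* are highest in M1, and the other 5 genes are highest in M2.

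*Retnla* encodes a secreted resistin-like protein that IL-4 induces in mouse macrophages. Its brighter probe (A_51_P257951) lay between −9.15 and −7.34 on the 8 Con and M1 arrays, none of them well above background, so their order carries no information. After IL-4 it was at 5.18 and 6.11 in WT and at 2.60 and 6.23 in KpCKO, in the order of the cultures. On the scale of the main fit WT M2 was thus at least 6128-fold above WT Con by group means, and KpCKO M2 at least 2988-fold above KpCKO Con. These bounds set the mean of the M2 arrays against the lowest signal that counts as well above background on the Con arrays. They are 12.6 and 11.5 on the log2 scale. Over the limma alternatives the difference was as small as 9.46 in WT and 8.37 in KpCKO, so the size of the fold depends on the processing. The KpCKO M2 array of culture 1 stood apart, 2.58 below the WT array of its culture on the log2 scale, whereas in culture 2 the genotypes differed by 0.11. The second probe (A_52_P254817) showed the same order, at 4.77 and 5.68 in WT M2 and 2.09 and 5.79 in KpCKO M2. Of the related genes, *Retnlb* was not well above background on any array and *Retnlg* on 6 arrays.

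*Chil3* encodes Ym1, a chitinase-like protein without chitinase activity. Its probe (A_51_P167292) was at 0.42 and −0.42 in WT Con, 0.31 and −0.04 in WT M1, and 5.07 and 4.98 in WT M2. In KpCKO it was at 1.13 and 0.25 in Con, 0.76 and 0.68 in M1, and 5.66 and 5.35 in M2. The M2 arrays did not overlap the Con and M1 arrays in either genotype. IL-4 raised *Chil3* by 5.02 ± 0.23 (SE) on the log2 scale in WT, 32.5-fold (limma adjusted p = 0.00017), and by 4.81 ± 0.23 in KpCKO, 28.1-fold (limma adjusted p = 0.00027). The response to LPS and IFNγ was 0.13 in WT, with a 95% interval from −0.41 to 0.68, and 0.04 in KpCKO (limma adjusted p = 0.64 and 0.91). *Chil4*, a near copy that encodes Ym2, followed *Chil3* with r = 0.999 over the 12 arrays, and probes of such near copies may bind both transcripts, so the values of *Chil3* are uncertain to that extent.

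*Mrc1*, *Clec10a* and *Mgl2* encode C-type lectins, surface receptors that bind sugars. *Mrc1*, the mannose receptor (A_51_P439248), was at 2.09 and 1.85 in WT Con, 1.85 and 1.50 in WT M1, and 5.50 and 5.38 in WT M2. In KpCKO it was at 0.91 and 0.38 in Con, 0.66 and 0.12 in M1, and 4.56 and 4.48 in M2. The cultures lay close together in each group, the M2 arrays stood above all others, and each KpCKO group lay below the WT group of its treatment with no overlap. IL-4 raised *Mrc1* by 3.47 ± 0.14 on the log2 scale in WT, 11.1-fold (limma adjusted p = 0.00012), and by 3.87 ± 0.14 in KpCKO, 14.6-fold (limma adjusted p = 9.5e-05). After LPS and IFNγ the difference was −0.29 in WT and −0.26 in KpCKO (limma adjusted p = 0.11 and 0.18). With quantile normalization it was −0.50 in WT and passed the test (limma adjusted p = 0.023), the 1 of 14 limma alternatives that did.

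*Clec10a* and *Mgl2* encode the galactose-type lectins MGL1 and MGL2. The 2 genes correlated at r = 0.944 over the 12 arrays, and whether the probe of 1 also binds the transcript of the other could not be checked. *Clec10a* (A_51_P141413) was at 1.65 and 2.46 in WT Con, 1.57 and 1.42 in WT M1, and 4.48 and 5.37 in WT M2. The KpCKO levels were 0.24 and 2.45 in Con, 0.21 and 0.92 in M1, and 2.07 and 4.41 in M2. The KpCKO arrays of culture 1 were low after every treatment, so that the KpCKO M2 array of that culture lay below the KpCKO Con array of culture 2. IL-4 raised *Clec10a* by 2.87 ± 0.58 on the log2 scale in WT, 7.29-fold (limma adjusted p = 0.019). In KpCKO the difference was 1.89 ± 0.58, with 1.83 in culture 1 and 1.96 in culture 2, and did not pass the test (limma adjusted p = 0.088). The WT call was lost without any 1 of the 4 arrays compared, at 3.06 and 2.67 without the WT Con array of culture 1 or 2 and 2.72 and 3.01 without the WT M2 array of culture 1 or 2 (limma adjusted p from 0.090 to 0.12), and without the culture term (limma adjusted p = 0.094), in a range from 0.0092 to 0.12 over the limma alternatives.

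*Mgl2* (A_52_P414065) was at −3.51 and −3.27 in WT Con, −3.36 and −3.37 in WT M1, and 0.81 and 2.09 in WT M2. The KpCKO levels were −5.17 and −4.31 in Con, −4.97 and −5.02 in M1, and −1.71 and 0.29 in M2. Its M2 arrays were above all Con and M1 arrays, and every KpCKO group lay below the WT group of the same treatment. IL-4 raised it by 4.84 ± 0.50 on the log2 scale in WT, 28.7-fold (limma adjusted p = 0.0021), and by 4.03 ± 0.50 in KpCKO, 16.4-fold (limma adjusted p = 0.0062). LPS with IFNγ gave a difference of 0.03 in WT and −0.25 in KpCKO (limma adjusted p = 0.96 and 0.70). The 95% intervals ran from −1.15 to 1.21 and from −1.43 to 0.93.

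*Flt1* encodes VEGF receptor 1, known from endothelial cells and also carried by monocytes and macrophages. Its brighter probe (A_51_P398723) was at 0.08 and −0.06 in WT Con, 1.48 and 1.43 in WT M1, and 4.93 and 5.45 in WT M2. In KpCKO, *Flt1* was at −1.52 and 0.38 in Con, −0.75 and 1.47 in M1, and 3.85 and 5.40 in M2. The order Con, M1, M2 held in each genotype and culture, and the KpCKO arrays of culture 1 were again the lowest. IL-4 raised *Flt1* by 5.18 ± 0.62 on the log2 scale in WT, 36.2-fold (limma adjusted p = 0.0036), and by 5.19 ± 0.62 in KpCKO, 36.6-fold (limma adjusted p = 0.0056). The second probe (A_52_P520859) gave 5.34 and 5.40 in a fit over probes (limma adjusted p = 0.0042 and 0.0065). The difference after LPS and IFNγ was 1.44 in WT and 0.93 in KpCKO and did not pass the test (limma adjusted p = 0.078 and 0.25). It passed by the methods' t-test in WT (adjusted p = 0.042), without the WT Con array of culture 1, at 2.13 (limma adjusted p = 0.047), and with the Con and M1 arrays of WT alone in the fit (limma adjusted p = 0.012), in a range from 0.012 to 0.41 over the limma alternatives. The KpCKO difference passed with the Con and M1 arrays of KpCKO alone in the fit (limma adjusted p = 0.033), the 1 of 14 limma alternatives that did. The endothelial marker *Kdr* rose from Con to M1 in each genotype and culture, as *Flt1* did. Unlike *Flt1*, it was higher in M1 than in M2 in each. *Cdh5* lay between −5.98 and −4.06 on all arrays, and *Tek* and *Tie1* were not well above background. A part of endothelial cells in the *Flt1* levels was not tested.

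*Ch25h* encodes cholesterol 25-hydroxylase, which makes 25-hydroxycholesterol and is known as an interferon-induced enzyme. Its probe (A_51_P112966) was at −1.48 and −1.56 in WT Con, 0.88 and 1.34 in WT M2, and 6.29 and 5.93 in WT M1. In KpCKO it was at −2.14 and −2.50 in Con, −0.04 and −0.14 in M2, and 2.64 and 3.58 in M1. The order Con, M2, M1 held in each genotype, with no overlap between treatments. IL-4 raised *Ch25h* by 2.63 ± 0.32 on the log2 scale in WT, 6.19-fold (limma adjusted p = 0.0037), and by 2.23 ± 0.32 in KpCKO, 4.68-fold (limma adjusted p = 0.010). LPS with IFNγ raised it by 7.63 ± 0.32 in WT, 198-fold (limma adjusted p = 6.4e-06), and by 5.43 ± 0.32 in KpCKO, 43.1-fold (limma adjusted p = 3.5e-05). In WT the M1 level was 32.0-fold above the M2 level (limma adjusted p = 2.6e-05). The IL-4 call in KpCKO was lost without the KpCKO Con array of culture 2, at 1.96 (limma adjusted p = 0.080), and without the KpCKO M2 array of culture 1 or 2, at 2.12 and 2.33 (limma adjusted p = 0.060 and 0.055), in a range from 0.0035 to 0.080 over the limma alternatives.

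*Tgm2* encodes transglutaminase 2, an enzyme that cross-links proteins. Its brightest probe (A_52_P220879) was at 6.34 and 6.12 in WT Con, 6.74 and 6.78 in WT M2, and 7.73 and 7.47 in WT M1. In KpCKO it was at 5.60 and 5.04 in Con, 6.23 and 5.55 in M2, and 7.53 and 6.84 in M1. M1 was highest in each genotype and culture, and the KpCKO M2 and Con arrays overlapped. The difference after IL-4 was 0.53 ± 0.20 on the log2 scale in WT and 0.57 ± 0.20 in KpCKO, positive in all 4 pairs of arrays, and did not pass the test (limma adjusted p = 0.11 and 0.12). The other probes gave 0.92 and 0.81 in WT (A_51_P182794 and A_51_P182796, limma adjusted p = 0.020 and 0.034 in a fit over probes). In KpCKO they gave 0.80 and 0.66 (limma adjusted p = 0.044 and 0.081), so that the first of them passed in both genotypes. With the mean of the 3 probes the WT difference was 0.75 and passed (limma adjusted p = 0.042), the 1 of 14 limma alternatives that did. Over these alternatives the WT difference ran from 0.27 to 0.80. LPS with IFNγ raised *Tgm2* by 1.37 ± 0.20 in WT, 2.58-fold (limma adjusted p = 0.00086), and by 1.87 ± 0.20 in KpCKO, 3.65-fold (limma adjusted p = 0.00033), calls that the methods' t-test did not give (adjusted p = 0.064 and 0.17). Over the limma alternatives the rise was as small as 0.54 in WT and 1.31 in KpCKO. Both calls held in all of them, with the highest limma adjusted p in WT, 0.026, under quantile normalization. In WT the M2 level was 0.84 below the M1 level on the log2 scale (limma adjusted p = 0.0082), a difference that shrank to 0.06 with quantile normalization (limma adjusted p = 0.78) and to 0.57 without the WT M2 array of culture 1 (limma adjusted p = 0.058), and lost its call without the culture term (limma adjusted p = 0.051), in a range from 0.0033 to 0.78 over the limma alternatives.

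**Figure D2:**
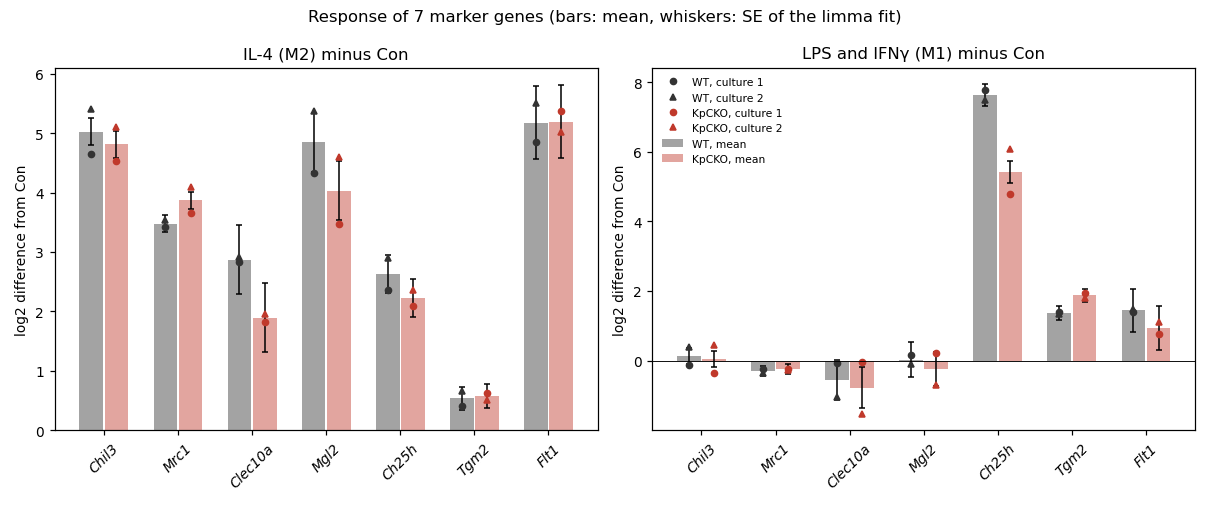
Log2 difference from Con (vertical axis) of 7 of the genes after IL-4 (left) and after LPS with IFNγ (right), with bars for the mean of WT (grey) and KpCKO (red), whiskers for the SE of the limma fit, circles for culture 1 and triangles for culture 2. *Retnla* is left out because its Con and M1 signals are not above background, and the tall pair of bars on the right is *Ch25h*, at 7.63 in WT and 5.43 in KpCKO.

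Whether *Keap1* loss changes the marker genes was asked within each treatment. In Con 1 of the 8 genes was lower in KpCKO, *Mrc1*, and none was higher, where 1.39% of all genes were higher and 0.827% lower. In M1 *Mrc1* and *Ch25h* were lower and none was higher, against 7.43% and 8.58% of all genes. In M2 *Mrc1* was lower and none was higher, against 1.28% and 0.644%. The median difference of the 8 genes was −0.76 in Con, −1.01 in M1 and −1.06 in M2 on the log2 scale, and that of all genes was 0.0016, −0.087 and 0.019. These comparisons rest on the same mice, so the 6 pairs of arrays below are the WT and KpCKO mice of 2 cultures, each measured after 3 treatments. The share of all genes with 1 direction in all 6 pairs was not counted, so such agreement is a description only. With whole cultures, fewer cells that express a gene and less of its RNA per cell cannot be told apart.

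*Mrc1* was lower in KpCKO in all 6 pairs of arrays. The log2 difference was −1.18 and −1.46 in Con in cultures 1 and 2, 2.50-fold (limma adjusted p = 0.0077), −1.18 and −1.38 in M1, 2.43-fold (limma adjusted p = 0.0038), and −0.94 and −0.90 in M2, 1.89-fold (limma adjusted p = 0.030). The direction held under every alternative run, with means between −1.45 and −0.78. With only the 4 arrays of a treatment in the fit, none of the 3 calls held (limma adjusted p = 0.17, 0.16 and 0.19), nor did they by the methods' t-test (adjusted p = 0.67, 0.42 and 0.56). In Con the call was lost without the culture term (limma adjusted p = 0.060), in a range from 0.0017 to 0.17 over the limma alternatives. It was also lost without the WT array of culture 1 or 2, at −1.36 and −1.28, and without the KpCKO array of culture 2, at −1.19. In M2 it was lost without the WT array of culture 1 or 2, at −1.03 and −0.81 (limma adjusted p = 0.12 and 0.19), without the KpCKO array of culture 1 or 2, at −0.78 and −1.06 (limma adjusted p = 0.19 and 0.079), without the culture term (limma adjusted p = 0.22), with normexp (limma adjusted p = 0.053) and with no filter on dim signals (limma adjusted p = 0.069), in a range from 0.010 to 0.22 over the limma alternatives.

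*Ch25h* was also lower in KpCKO in all 6 pairs. The log2 difference was −0.66 and −0.94 in Con, −3.65 and −2.35 in M1, and −0.93 and −1.48 in M2. It passed the test in M1, at −3.00 ± 0.32 or 8.01-fold (limma adjusted p = 0.0031), and in 13 of 14 limma alternatives there, the exception being the fit of the M1 arrays alone (limma adjusted p = 0.16). By the methods' t-test it was not called (adjusted p = 0.36). It did not pass in Con or M2 (limma adjusted p = 0.32 and 0.15). The rise of *Ch25h* after LPS and IFNγ was smaller in KpCKO than in WT by 2.99 in culture 1 and 1.41 in culture 2. This difference of responses, with a mean of −2.20 and a 95% interval from −3.27 to −1.13, did not pass the test over all genes (limma adjusted p = 0.13).

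*Mgl2*, *Clec10a* and *Tgm2* lay below WT in all 6 pairs of arrays as well, with no call by the test. By the rule of more than 2-fold in both cultures, *Mgl2* was lower in KpCKO after each treatment, with log2 differences from −2.52 to −1.04. *Clec10a* and *Tgm2* met that rule after no treatment, and *Mrc1* met it in Con and M1 but not in M2. For *Mgl2* the mean difference was −1.35 in Con, −1.63 in M1 and −2.16 in M2 (limma adjusted p = 0.28, 0.068 and 0.10), and it passed in M1 when only genes measured above background on every array were tested and with the trended and robust variance prior (limma adjusted p = 0.045 in each, in a range up to 0.29). For *Clec10a* it was −0.71, −0.93 and −1.68 (limma adjusted p = 0.71, 0.30 and 0.25). For *Tgm2* it was −0.91, −0.41 and −0.87 (limma adjusted p = 0.079, 0.19 and 0.097). *Tgm2* passed in Con and in M2 with quantile normalization (limma adjusted p = 0.038 in each, in ranges up to 0.37 and 0.42) and with the trended and robust variance prior (limma adjusted p = 0.033 and 0.046), and in Con with the filter on all arrays (limma adjusted p = 0.0498). Its probe A_51_P182794 passed in Con and M2 (limma adjusted p = 0.046 and 0.036 in the fit over probes) and A_51_P182796 in M2 (limma adjusted p = 0.041). *Chil3* was the one gene higher in KpCKO in all 6 pairs, by 0.37 to 0.72, with means of 0.69, 0.59 and 0.48 and no call (limma adjusted p = 0.23, 0.12 and 0.41).

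*Flt1*, *Clec10a* and *Retnla* shared a split between the cultures that was noticed after the values were seen. *Flt1* was lower in KpCKO by 1.08 to 2.22 in culture 1, and in culture 2 its difference lay between −0.05 and 0.44. The difference of *Clec10a* lay between −2.41 and −1.36 in culture 1 and between −0.96 and −0.01 in culture 2. For *Retnla*, measured in M2 only, the values were −2.58 and 0.11. None passed the test, and the 95% interval of the mean in M2 ran from −2.03 to 0.90 for *Flt1* and from −3.93 to 1.46 for *Retnla*. With 1 mouse a genotype and culture, the mouse, the sex and the culture cannot be told apart.

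**Figure D3:**
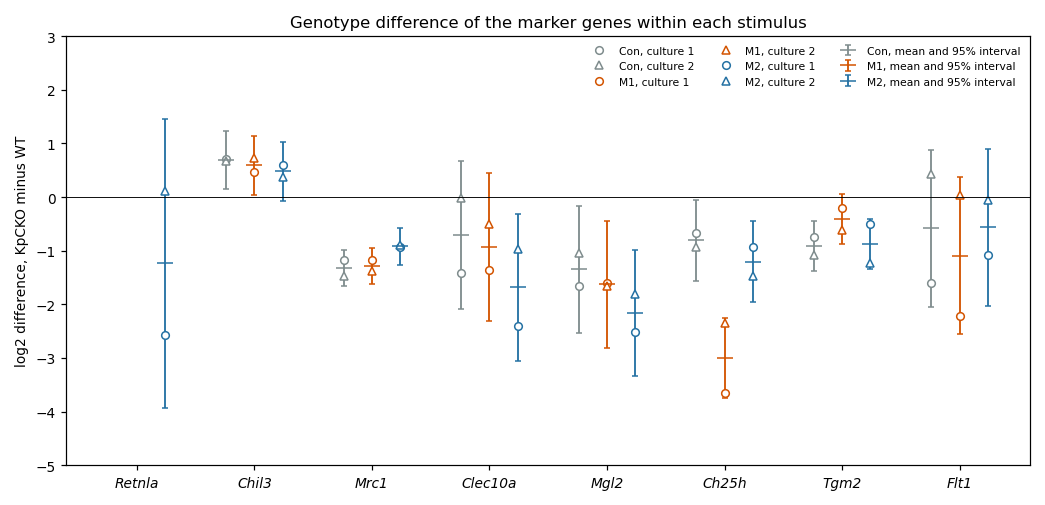
Log2 difference KpCKO minus WT (vertical axis) of each gene in Con (grey), M1 (orange) and M2 (blue), with circles for culture 1, triangles for culture 2, dashes for the mean and whiskers for its 95% interval in the limma fit. *Retnla* is shown in M2 only, and the points of *Mrc1*, *Mgl2*, *Ch25h* and *Tgm2* all lie below 0, whereas those of *Chil3* lie above it.

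Some markers of the cells themselves differed between the genotypes in 1 direction, and others did not. The summed signal of the 7 macrophage markers, as a multiple of the 75th percentile of the array, was 583 to 639 in WT Con and 405 to 469 in KpCKO Con, 833 to 1041 in WT M1 and 560 to 662 in KpCKO M1, and 488 to 545 in WT M2 and 414 to 452 in KpCKO M2. *Adgre1*, *Cd14* and *Fcgr1* were lower in KpCKO in all 6 pairs, *Csf1r* and *Lyz2*, the locus that carries the Cre, in 5, and *Itgam* and *Mertk* in 3. Of the 4 stromal markers *Dcn* was lower in all 6 pairs, with log2 differences from −4.29 to −1.16, *Pdgfra* in 5, and *Col1a1* and *Col3a1* in 3. Of the endothelial markers measured, *Kdr* was lower in all 6 pairs, with log2 differences from −3.31 to −1.84, and *Cdh5* in 4. Among the neutrophil markers *S100a9* was lower in all 6 pairs, *Camp* and *Ltf* in 5, *Elane* in 4, *Ngp* in 3 and *S100a8* in 1. *Mpo* was higher in all 6. Among the mast cell and basophil markers *Mcpt8* was higher in all 6 pairs, *Cpa3* in 5, *Fcer1a* in 3 and *Ms4a2* in 1. The dendritic cell marker *Zbtb46* was higher in all 6, *Dpp4* in 4, *Ccr7* and *Xcr1* in 3, and *Flt3* and *Cd209a* in 2. The summed signal of 7 neutrophil markers overlapped between the genotypes after each treatment, at 7.36 to 16.5 in WT Con and 5.11 to 16.1 in KpCKO Con. The part of these shifts in the differences of the 8 genes was not tested.

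The response to IL-4 was compared between the genotypes directly. None of the 8 genes differed in it by limma's test, where 0.00894% of all genes did, and none of the 8 had p under 0.05 before adjustment. For *Chil3* the difference of the responses was −0.21, with a 95% interval from −0.98 to 0.56, and for *Mrc1* it was 0.40, from −0.08 to 0.88. It was −0.81 for *Mgl2*, from −2.48 to 0.85, and 0.02 for *Flt1*, from −2.06 to 2.09, and such intervals leave room for a large difference either way. In the response to LPS and IFNγ none of the 8 genes differed after adjustment, against 0.0716% of all genes, and *Ch25h* was the 1 gene with p under 0.05 before it.

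The 8 genes fell into 2 patterns over the 12 arrays. *Retnla*, *Chil3*, *Mrc1*, *Clec10a*, *Mgl2* and *Flt1* correlated with each other at Pearson's r from 0.70 (*Chil3* and *Clec10a*) to 0.97 (*Retnla* and *Chil3*). *Ch25h* and *Tgm2* correlated with each other at 0.88, and their r with the other 6 genes lay between −0.21 and 0.13. These values describe arrays that share 3 treatments and 4 mice, they carry no p, and for *Retnla* they include 8 signals not above background.

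**Figure D4:**
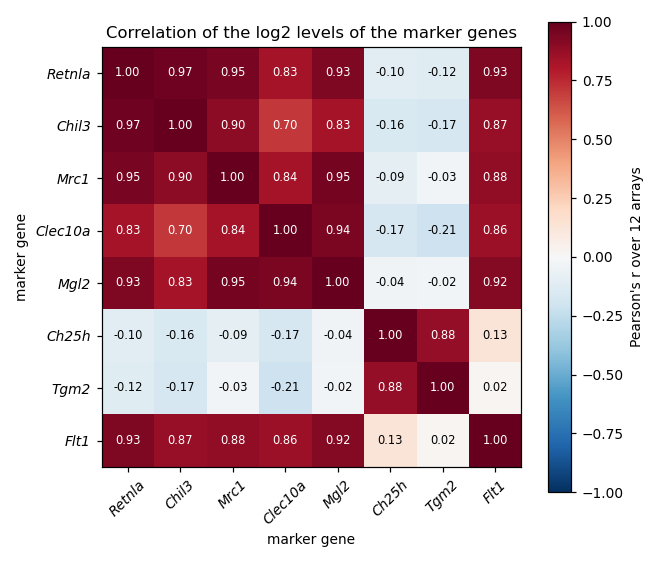
Pearson's r between the log2 levels of each pair of the 8 genes over the 12 arrays, written in each cell and shown by colour from −1 (blue) to 1 (red), with the genes on both axes. The block of 6 genes correlates at 0.70 to 0.97, and *Ch25h* pairs with *Tgm2* at 0.88.

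For each gene the 2 genes with the most similar levels over the 12 arrays were looked up, again as a description. *Cdh1* (r = 0.993) and *Msx3* (r = 0.989) were nearest to *Retnla*, and *Chil4* (r = 0.999) and *Tbxas1* (r = 0.990) to *Chil3*. *Mrc1* was followed by *Ilk* (r = 0.979) and *Slc39a12* (r = 0.977), *Clec10a* by *Zfp511* (r = 0.979) and *Lifr* (r = 0.963), and *Mgl2* by *Ruvbl2* (r = 0.977) and *Pan3* (r = 0.969). *Farsa* (r = 0.990) and *Rel* (r = 0.989) were nearest to *Ch25h*, *Eif4e* (r = 0.971) and *Gfer* (r = 0.963) to *Tgm2*, and *Tiam1* (r = 0.983) and *Klf4* (r = 0.968) to *Flt1*. Several rose little after IL-4 in WT, *Ilk* by 0.86 and *Ruvbl2* by 0.64 on the log2 scale, where *Chil4* rose by 5.11. *Cdh1* and *Msx3* were, like *Retnla*, well above background on the 4 M2 arrays alone. The neighbours were not stable, since 6 of these 16 genes were found again with quantile normalization, 5 with normexp and 2 with Spearman's rho.

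Other genes known to respond to IL-4 in macrophages were taken from a list of 24, of which 23 were on the array and 21 could be tested. In WT 17 of the 21 were higher after IL-4 and none was lower, where 8.62% of all genes were higher and 8.2% lower. The median of the 21 was 5.09 on the log2 scale (5.05 with 3 genes not above background in WT Con at their lower bound). In KpCKO 18 were higher, where 5.68% of all genes were, with a median of 3.96. *Cdh1* and *Il31ra* passed the filter on dim signals through their M2 arrays alone, so their rise after IL-4 was built into the selection. *Arg1*, the enzyme arginase 1, rose by 10.4 in WT (limma adjusted p = 4.6e-05), and *Pdcd1lg2*, the ligand PD-L2, by 8.61 (limma adjusted p = 0.00042), with 1 of the 2 WT Con arrays not well above background. *Cdh1*, E-cadherin, was not above background in WT Con and rose at least 184-fold on the scale of the main fit. LPS with IFNγ raised 11 of the 21 genes and lowered 3 in WT, against 34.5% and 28.7% of all genes. Between the genotypes 2 genes were higher in KpCKO Con, 3 were higher and 3 lower in KpCKO M1, and 1 was higher in KpCKO M2. Of all genes 1.39% were higher in Con, 7.43% higher and 8.58% lower in M1, and 1.28% higher in M2. *Mmp12*, the macrophage elastase, was higher in KpCKO in each treatment, by 4.05, 3.20 and 4.03 (limma adjusted p = 0.0036, 0.0036 and 0.0042). The median genotype difference of the list was 0.03 in Con, −0.02 in M1 and −0.08 in M2, beside the −0.76, −1.01 and −1.06 of the 8 marker genes, and the 2 lists were not tested against each other.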

How the data were processed

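RNA of WT and KpCKO BMDMs in Con, M1 and M2 was labelled with Cy3 and measured on 12 one-colour Agilent mouse arrays. The deposited intensities are the authors' background-subtracted spot signals from Agilent Feature Extraction 10.7.3.1, with flags for background and saturation, for 43379 spots an array and without scaling between arrays. A table of log2 values that the authors made with GeneSpring served as an alternative. It was found to hold log2 intensities scaled to the 75th percentile of each array and centred per probe (slopes of 0.9996 to 1.0004 over 40749 probes). Outlier spots were left out, spots of a probe were averaged, and log2 intensities were set relative to the 75th percentile of the array. Of 41174 probes, 26682 matched 18213 RefSeq symbols by accession. The brightest probe stood for a gene, and a gene was kept if both arrays of some group measured it well above background (22367 genes). The array design and the RefSeq table use different genome builds, so the table gave names only.

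limma 3.58.1 in R 4.3.3 fitted the 6 groups with culture as a block (5 residual and 1.92 prior degrees of freedom), with Benjamini-Hochberg adjustment over all genes. The code was tested on simulated data. The pairing by culture comes from the description of the series, and, over 22080 genes, deviations from the group mean correlated within a culture at 0.162 to 0.597 in 15 pairs of groups. The marker genes and lists were chosen with earlier results of these data known. The genes named are the 8 markers, their near copies, the 2 nearest genes of each by Pearson's r, the 3 other IL-4 genes with the largest rise in WT, and genes that check genotype, treatment and cell type. *Mmp12* was named after its values were seen, and *Il31ra* for the way it passed the filter. Alternatives were quantile normalization, normexp with an offset of 50, the authors' table, other filters, the mean of probes, no culture block, mouse as a random block, the compared groups alone, another variance prior, the methods' t-test, a rule of 2-fold in both cultures, and leaving out each array. Python 3.11.15 with pandas 2.3.3 was used for tables and matplotlib 3.10.9 for plots. Precision is limited by the number of arrays, 2 a group.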

Additional observations from a re-analysis of the deposited data

How the results depend on the processing

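Of 1238 values of single genes under an alternative, 1113 kept their direction and side of the test, 55 lost a call, 13 gained one and 57 changed sign. Quantile normalization moved the median of all genes in the WT response to LPS and IFNγ from 0.13 to −0.079, and normexp moved it from −0.0087 to 0.27 in the WT IL-4 response, so signs of small differences depend on the scaling. By the methods' t-test after Benjamini-Hochberg adjustment 0 of the 8 genes were called in the IL-4 responses, the KpCKO response to LPS and IFNγ and each comparison of the genotypes, 2 in the WT response to LPS and IFNγ (*Ch25h* and *Flt1*, with *Tgm2* lost) and 5 in M2 against M1. Without adjustment it called 1 in the KpCKO response to LPS and IFNγ. With the compared groups alone, 0 were called in the KpCKO IL-4 response and in each comparison of the genotypes. In Con the genotype comparison called 2 genes with quantile normalization, the strict filter, the other variance prior, the unadjusted methods' t-test or the 2-fold rule, and 0 with no culture block; leaving out 1 array gave 0 to 1. In M2 it called 2 with quantile normalization, the other variance prior or the unadjusted t-test, and 0 with normexp, no filter or no culture block; leaving out 1 array gave 0 to 0. The calls that the culture block changed are given with the results, and it changed no others. The 2-fold rule called 1 gene, *Ch25h*, in the genotype difference in the response to LPS and IFNγ. The median r over all pairs of the 8 genes was 0.832, 0.780 with quantile normalization and 0.451 with Spearman's rho, and the cause was not tested. This median pools pairs within and between the 2 patterns, so it does not describe the 8 genes as 1 group.

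Signs that changed all belonged to differences that did not pass the test. With quantile normalization *Retnla* was at −0.37 in WT and −0.22 in KpCKO and *Chil3* at −0.0055 in KpCKO after LPS and IFNγ, and the genotype differences in response were −0.042 for *Tgm2* and −0.074 for *Flt1* with IL-4 and 0.15 for *Retnla* with LPS and IFNγ. With normexp *Chil3* in WT was at −0.067 and *Mgl2* in KpCKO at 0.061 after LPS and IFNγ, where the genotype differences in response were 0.11 for *Chil3* and −0.012 for *Mrc1*. With the mean of probes that of *Tgm2* with IL-4 was −0.078. Leaving out 1 array at a time turned the sign of the following. In the WT response to LPS and IFNγ the log2 difference ran from −0.71 to 1.37 for *Retnla*, from −0.12 to 0.38 for *Chil3*, from −1.33 to 0.21 for *Clec10a* and from −0.41 to 0.46 for *Mgl2*. In the KpCKO response to LPS and IFNγ the log2 difference ran from −0.72 to 1.01 for *Retnla*, from −0.24 to 0.31 for *Chil3* and from −0.71 to 0.21 for *Mgl2*. In KpCKO against WT in Con the log2 difference ran from −1.49 to 0.59 for *Retnla* and from −1.27 to 0.10 for *Flt1*. In KpCKO against WT in M2 the log2 difference ran from −3.27 to 0.80 for *Retnla*. In the genotype difference in the IL-4 response the log2 difference ran from −2.82 to 1.25 for *Retnla*, from −0.48 to 0.067 for *Chil3*, from −0.22 to 0.31 for *Tgm2* and from −0.67 to 0.70 for *Flt1*. In the genotype difference in the LPS and IFNγ response the log2 difference ran from −1.22 to 0.86 for *Retnla*, from −0.37 to 0.18 for *Chil3*, from −0.11 to 0.18 for *Mrc1*, from −0.99 to 0.55 for *Clec10a*, from −0.74 to 0.18 for *Mgl2* and from −1.24 to 0.22 for *Flt1*.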
